A study of Rattus norvegicus with 9 samples.

Results

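The comparison described here is that of INS-1E cells given palmitic acid with cyanidin-3-O-glucoside (PA + C3G) against cells given only bovine serum albumin (BSA), the carrier of the fatty acid. It rests on 6 of the 9 RNA-seq libraries of the study, 3 for each group, and on the 12958 of 20645 listed genes whose mean FPKM (fragments counted per length of gene and per depth of library) over the 9 libraries was at least 1. INS-1E is a rat insulinoma line, used as a model of the insulin-secreting beta cell. All groups were treated for 24 h, the BSA group with albumin alone, the PA group with 0.5 mM PA, and the PA + C3G group with 0.5 mM PA and 50 µM C3G. The titles call the libraries control, palmitic acid treated and cyanidin-3-O-glucoside treated. The methods of the study describe the groups as BSA, PA and PA with C3G for 24 h, and give the doses. No group received C3G without PA, so what C3G did to cells at rest was not measured. The PA libraries were used to say which way palmitate alone had moved each gene.

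PA is the most common saturated fatty acid of the diet, and its excess loads the endoplasmic reticulum (ER) of beta cells, where proinsulin is folded. Misfolded protein in the ER is sensed by PERK, IRE1 and ATF6, which slow translation and switch on chaperones, degradation factors and, through ATF4, the transcription factor CHOP. C3G is an anthocyanin, a plant pigment of dark berries. The question put to the data is which genes of palmitate-treated cells stayed away from the BSA level when C3G was present, and which passed over it to the other side.

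The 9 libraries held 45559993 to 66730721 estimated counts each. All 14 beta-cell markers on the list used here were at a mean of 1 FPKM or more, and their summed level was 50413 to 51144 FPKM in the BSA libraries and 47952 to 53553 in the PA + C3G libraries. Ins1 and Ins2 made up most of that sum, at means of 26650 and 13778 FPKM with BSA. With PA + C3G they were at 32002 and 7008, so the sum does not show that each marker kept its level. Acinar, endothelial and delta-cell markers summed to at most 0.12 FPKM in any library of the 2 groups, and leukocyte markers to at most 0.812. Only 3 of 6 acinar, 1 of 3 endothelial, 1 of 2 delta-cell and 3 of 4 leukocyte markers were among the listed genes. For alpha cells it was 2 of 4, for duct 2 of 3 and for fibroblasts 3 of 4. Low sums therefore do not show that these cell types were absent. The alpha-cell list summed to between 8.28 and 31.2 FPKM with BSA and between 4.17 and 22.5 with PA + C3G, the duct list to between 2.52 and 2.72 against 3.05 to 3.87, and the fibroblast list to between 2.08 and 2.64 against 2.57 to 2.85. Whether these small levels bear on the results was not tested. In libraries from whole cultures, fewer cells of one state and less RNA per cell cannot be told apart. The labels do not say that the 3 libraries of a group came from separate cultures, so the p-values measure the spread between these samples, which may be technical.

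Many genes of cells treated with PA + C3G remained away from the control, most of them by little. Between PA + C3G and BSA, 4783 genes (36.9% of those tested) passed an adjusted p under 0.05 by edgeR's quasi-likelihood test with Benjamini-Hochberg adjustment. Of these, 2462 (19.0%) were higher than BSA and 2321 (17.9%) lower. That balance depended on the scaling, with 1891 higher and 3038 lower when each library was rescaled to the same FPKM sum, and with 1822 higher and 3033 lower by limma on log2(FPKM + 1). The median size of a called change was 0.39 on the log2 scale, with quartiles of 0.25 and 0.64, and 571 called genes differed by more than 2-fold. Under the criterion of the study's methods, a fold above 2 and an unadjusted p under 0.05, 600 genes (4.63%) differed, 241 higher (1.86%) and 359 lower (2.77%). For PA against BSA the same test called 6614 genes (51.0%, with 25.8% higher and 25.2% lower), and for PA + C3G against PA 2752 (21.2%, with 11.1% higher and 10.2% lower).

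The 4783 genes fell into 3 classes, set by where PA alone had left them. In 4042 (31.2% of the tested genes) PA had changed the gene past the threshold to the same side, with 2067 higher than BSA and 1975 lower. Of these 4042, 1215 lay closer to BSA than with PA alone by the test of PA + C3G against PA, 110 lay further out, and for 2717 that test was not passed. On the opposite side from PA were 44 genes (0.340%), 31 of them above BSA and 13 below. The remaining 697 genes (5.38%) were called against BSA with PA + C3G and not with PA, 364 higher and 333 lower. A further 2528 genes were called with PA and not with PA + C3G, and for 1391 of those the 95% interval of the PA + C3G difference lay within 1.25-fold of BSA. The 2 contrasts share the BSA libraries, which favours the same sign in both, so these counts describe the libraries and were not tested.

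**Figure D1:**
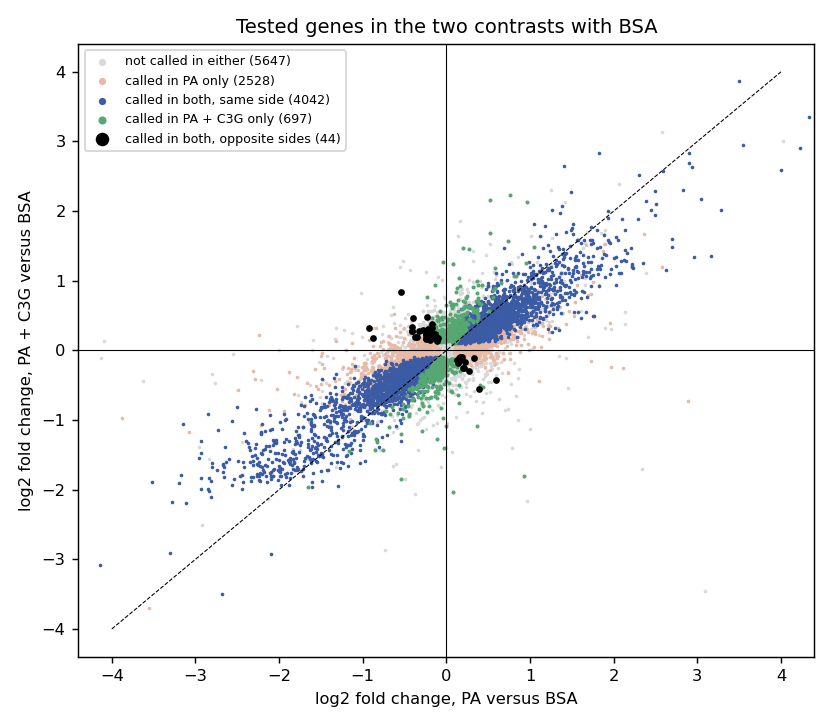
Log2 fold change of each tested gene with PA versus BSA (horizontal axis) and with PA + C3G versus BSA (vertical axis), coloured by which contrasts passed an adjusted p under 0.05; the dashed line marks equal change, and 28 genes lie outside the axes. The 4042 genes called on one side in both contrasts spread along the line, and the 44 called on opposite sides lie near the centre.

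The median of 36 gene lists gave an outline of what remained. With PA + C3G against BSA, ER chaperones had the highest median (log2 fold change 0.87), followed by lysosome genes (0.61), the unfolded protein and integrated stress response (0.56) and the ER translocon and COPII coat (0.43). The lowest medians were those of mitosis genes (−1.59) and DNA replication genes (−0.83). Over all tested genes the median was 0.01. The counts of members below stand beside 19.0% of all tested genes higher than BSA and 17.9% lower. With PA + C3G against PA, 11.1% of all tested genes were higher and 10.2% lower. The median of insulin and granule cargo stood at 0.41 with PA + C3G, against 0.02 with PA alone.

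**Figure D2:**
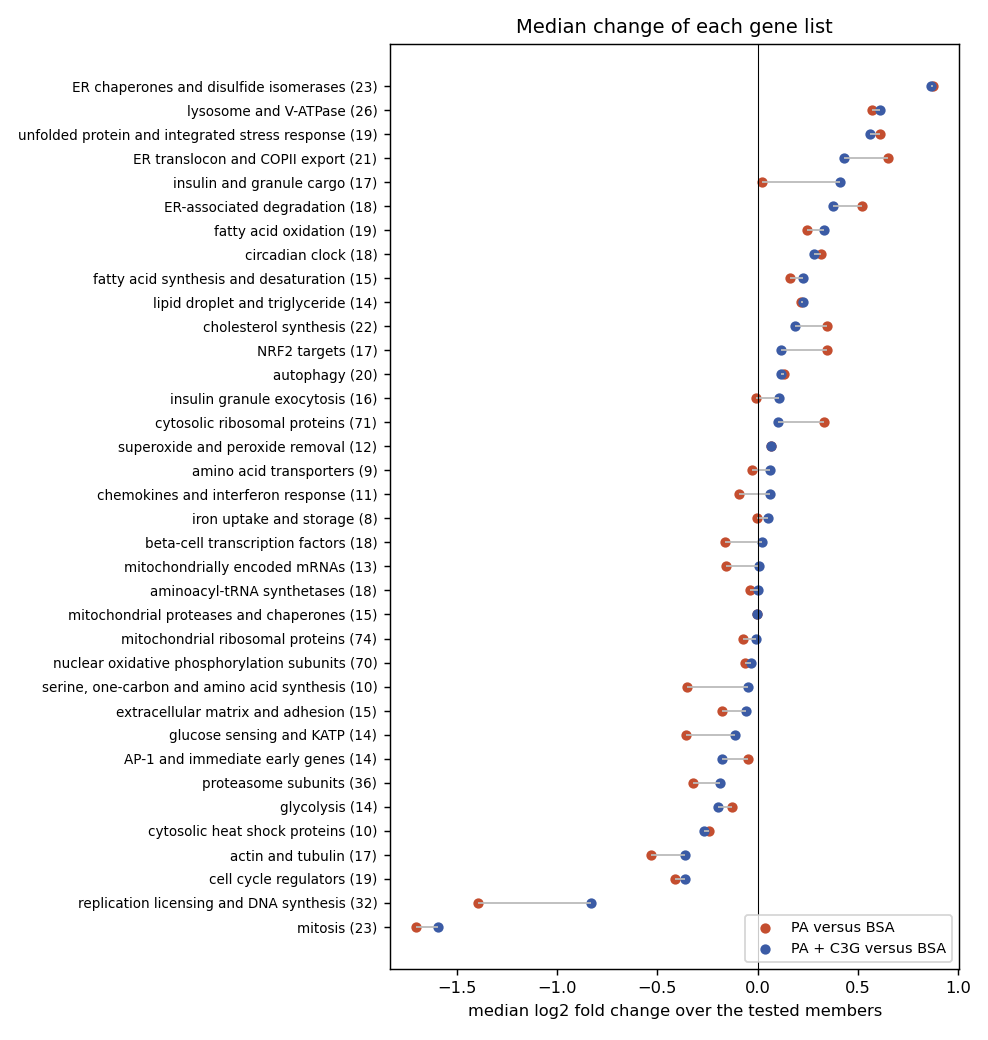
Median log2 fold change over the tested members of each of 36 gene lists (number of members in brackets), for PA versus BSA and PA + C3G versus BSA, joined by a line. Mitosis genes stand lowest in both contrasts (−1.70 and −1.59), and replication genes moved from −1.39 to −0.83.

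ER chaperones and disulfide isomerases, which fold proteins in the ER lumen, stayed above BSA. Of 23 tested, 21 were higher in the PA + C3G group, 1 was lower and 1 was not called, against 19.0% of all genes higher. Their median was 0.87, and with PA alone it had been 0.88. Against PA, 10 of the 23 were lower and 2 higher, with 10.2% and 11.1% over all tested genes. Hspa5, the main ER chaperone BiP, was at 325, 313 and 369 FPKM with BSA and at 774, 764 and 784 with PA + C3G. With PA alone it had stood between 1086 and 1114, so the groups did not overlap and the PA + C3G libraries lay between the others. The log2 fold change from BSA was 1.27 ± 0.05 (SE, adjusted p = 2.8e-07). Calr, the calcium-binding chaperone calreticulin, was at 354, 291 and 332 FPKM with BSA and at 830.3, 702 and 764 with PA + C3G. Its change of 1.29 ± 0.08 (SE, adjusted p = 2.31e-06) compared with 1.31 for PA alone, and PA + C3G did not differ from PA past the threshold (−0.01, adjusted p = 0.932). Dnajb9, a co-chaperone of BiP that binds IRE1, had the largest change of the list at 1.59 ± 0.07 (SE, adjusted p = 2.56e-07), from 8.81, 9.88 and 9.61 FPKM to 26.5, 25.4 and 29.5. Sdf2l1, which works with BiP, followed at 1.48, and Manf, a secreted ER factor, at 1.13.

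Not every ER folding gene did the same. Ero1b, the oxidase of the beta-cell ER that drives disulfide formation, was the member below BSA, at 42.4, 54.0 and 49.3 FPKM against 77.4, 85.6 and 80.5. Its change was −0.68 ± 0.08 (SE, adjusted p = 0.000169), and with PA alone it was also −0.68. Erp29, a lumenal escort of secretory proteins, was further above BSA with PA + C3G (0.50) than with PA (0.17), and PA + C3G against PA was itself past the threshold (0.33, adjusted p = 0.00266). Dnajc10, a disulfide reductase, differed from BSA by 0.07 (adjusted p = 0.45). These 3 were picked after their values were seen.

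Some chaperone promoters share a short element. The ER stress element (ERSE), to which ATF6 binds together with NF-Y, consists of CCAAT and CCACG with 9 bases between them. In the 250 bases before the start site, on either strand, it stood in 21 of 27457 RefSeq promoters (0.0765%, 1 promoter per symbol, assembly GRCr8) and in 7 of the 19 ER chaperone promoters that could be matched (36.8%). The promoters of the 4 chaperones with an ERSE and the largest change are shown from 25 bases before to 25 after the element where the window allows, 5′ to 3′ along the gene's strand, with the element in capitals, which in Calr reads on the other strand. Hspa5 lies at chr3:38452948-38453015 (plus strand), Calr at chr19:40213117-40213178 (plus), Dnajc3 at chr15:102432509-102432577 (plus) and Hsp90b1 at chr7:23012426-23012494 (minus).
Hspa5: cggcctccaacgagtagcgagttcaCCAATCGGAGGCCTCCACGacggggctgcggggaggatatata
Calr: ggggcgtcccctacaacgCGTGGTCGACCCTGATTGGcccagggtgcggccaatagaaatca
Dnajc3: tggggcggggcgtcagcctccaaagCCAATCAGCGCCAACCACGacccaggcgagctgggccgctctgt
Hsp90b1: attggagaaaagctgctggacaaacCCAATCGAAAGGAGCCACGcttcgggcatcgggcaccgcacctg
Dnajc3, an inhibitor of the PERK kinase, rose by 1.04 and Hsp90b1, the chaperone GRP94, by 0.87 on the log2 scale (adjusted p = 7.42e-05 and 1.42e-05), and Hsp90b1 carries a second copy of the element nearer to its start. Of the 15 tested genes with an ERSE, 9 were above BSA with PA + C3G (60.0%), 4 below (26.7%) and 2 not called. Among those below were Ero1b and Birc5, an inhibitor of apoptosis made in dividing cells, so the genes with the element did not all move one way. A match is a run of letters and not evidence of binding.

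The branches of the unfolded protein response also stayed above BSA, and some of their genes lay lower than with PA alone. Of 19 tested genes of the unfolded protein and integrated stress response, 17 were higher than BSA, 1 was lower and 1 was not called, and against PA 4 were higher and 7 lower. Eif2ak3, which encodes PERK, was at 9.37, 8.16 and 9.47 FPKM with BSA and at 14.4, 13.3 and 13.7 with PA + C3G. PA alone had placed it at 21.4 to 22.8, so all PA + C3G libraries stood between the groups. The change from BSA was 0.68 ± 0.06 (SE, adjusted p = 2.39e-05) and that from PA −0.65 (adjusted p = 0.000214). Ddit3, which encodes CHOP, was at 56.6, 48.8 and 57.2 FPKM with BSA and at 84.7, 76.7 and 78.2 with PA + C3G, 0.62 ± 0.08 above BSA (SE, adjusted p = 0.000167) and 0.70 below PA (log2, adjusted p = 0.000399). Ppp1r15a, the phosphatase subunit that undoes the PERK signal, showed the same order, 0.93 above BSA and 0.80 below PA.

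Other genes of the response were as far from BSA as with PA, or further. Atf4, the translationally controlled factor upstream of CHOP, was at 244, 207 and 222 FPKM with BSA and at 326, 291 and 304 with PA + C3G, 0.51 above BSA where PA gave 0.48, and PA + C3G against PA did not pass the threshold (0.04, adjusted p = 0.804). Xbp1, the target of IRE1, rose by 0.76 ± 0.05 (SE, adjusted p = 3.19e-06), from 100.1, 113 and 112 FPKM to 176, 175 and 177, and Atf5, a relative of ATF4, by 0.91. With PA alone Xbp1 had risen by 0.61 and Atf5 by 0.76. Against PA, the PA + C3G group was higher for Atf5 (0.15, adjusted p = 0.049) and missed the threshold for Xbp1 (0.15, adjusted p = 0.0611). Trib3, a pseudokinase induced by CHOP, was at 125, 105 and 109 FPKM against 75.2, 65.0 and 67.97, 0.76 above BSA. Gadd45a, a growth arrest gene, was the member below BSA (−0.42, adjusted p = 0.00195), which PA alone had not changed past the threshold (−0.17, adjusted p = 0.0899). The C/EBP-ATF response element (TGATGNAA), through which ATF4 acts, stood in 4 of 16 matched promoters of this list (25%) against 899 of all promoters (3.27%). Over the 154 tested genes with that element 33 were higher than BSA (21.4%) and 30 lower (19.5%), near the shares of all genes.

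Genes of export from the ER and of disposal of its misfolded proteins were also mostly above BSA, and some lay lower than with PA alone. Of 18 genes of ER-associated degradation 13 were higher than BSA and none was lower, with a median of 0.37 (0.52 with PA), and 5 were not called. Against PA, 10 of the 18 were lower and none was higher, with 10.2% of all tested genes lower. Selenos, a membrane selenoprotein of the degradation complex, rose by 1.22 ± 0.05 (SE, adjusted p = 2.61e-07), from 53.4, 51.8 and 48.5 FPKM to 117, 111 and 114. Derl3, a channel protein of the same pathway, was at 11.5, 14.2 and 13.3 FPKM against 5.62, 5.69 and 6.85, and Os9, a lectin that reads the glycans of misfolded proteins, at 173, 157 and 165 against 83.7, 78.8 and 82.9. No PA + C3G library of either gene overlapped the BSA libraries. Among 21 genes of the translocon, signal peptidase and COPII coat, 15 were higher and 6 were not called. Their median was 0.43 (0.65 with PA), and against PA 7 were lower and 3 higher. Sec11c, a signal peptidase subunit, rose by 1.26 and Sec61a1, the channel of the translocon, by 0.86. The XBP1 element TGACGTGG stood in 3 of 15 matched degradation promoters (20%) against 151 of all promoters (0.55%), and of the 73 tested genes that hold it 32 were above BSA (43.8%) and 8 below (11.0%).

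Lysosome genes were the other large group that remained high. Of 26 tested, 22 were above BSA and 4 were not called, with a median of 0.61 against 0.57 with PA alone. Gaa, the acid glucosidase that breaks down glycogen, was at 178, 159 and 165 FPKM with BSA, at 409 to 443 with PA and at 437, 409 and 416 with PA + C3G. Its change was 1.39 ± 0.05 (SE, adjusted p = 1.61e-07), and the PA and PA + C3G libraries overlapped. Ctsd, the protease cathepsin D, rose by 1.24 ± 0.04 (SE, adjusted p = 7.41e-08), from 159, 152 and 152 FPKM to 358, 343 and 345. Lamp2, a major protein of the lysosomal membrane, rose by 1.19 and Neu1, a sialidase, by 1.18. Npc2, which carries cholesterol out of the lysosome, was 1.34 above BSA and 0.69 below PA (log2, adjusted p = 0.000454). The CLEAR element TCACGTGA, bound by TFEB, stood in 3 of 18 matched lysosome promoters (16.7%) against 204 of all promoters (0.743%), and of the 144 tested genes that hold it 46 were above BSA (31.9%, against 19.0% of all genes) and 23 below (16.0%, against 17.9%). It shares the letters ACGTG with the XBP1 element. Autophagy genes were less one-sided, with 8 of 20 higher, 1 lower and 11 not called (7 higher and 2 lower with the same FPKM sum per library). Sqstm1, the autophagy receptor p62, led them at 0.71.

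**Figure D3:**
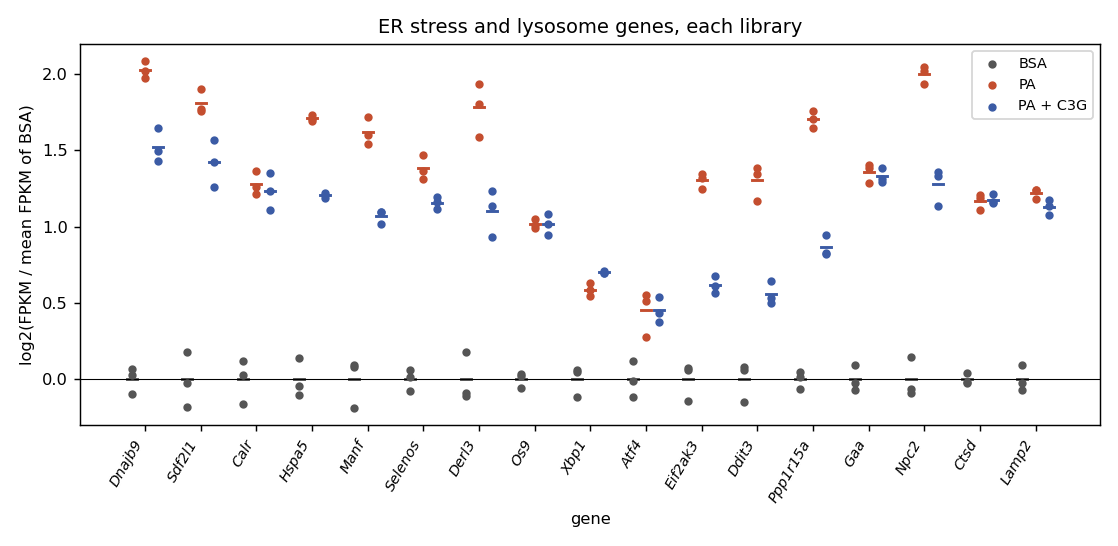
FPKM of ER stress and lysosome genes in each library, as log2 of the ratio to the BSA mean of the gene; points are the 3 libraries of a group and bars the group means. All PA + C3G points lie above all BSA points, and for Hspa5, Eif2ak3, Ddit3 and Ppp1r15a, among others, they also lie below all PA points, whereas for Calr, Os9, Gaa and Ctsd the PA + C3G means lie within 0.1 of the PA means.

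Genes of cell division stayed below BSA, and those of mitosis moved less towards it than those of DNA synthesis. All 32 tested genes of replication licensing and DNA synthesis were lower than BSA in the PA + C3G group, against 17.9% of all genes, with a median of −0.83 where PA alone gave −1.39. Against PA, 25 of the 32 were higher and none was lower. Rrm2, the regulated subunit of ribonucleotide reductase, was at 75.9, 60.0 and 74.2 FPKM with BSA, at 8.90 to 13.1 with PA and at 25.01, 22.1 and 17.3 with PA + C3G. It was the furthest from BSA, at −1.64 ± 0.17 (SE, adjusted p = 4.88e-05), and 1.03 above PA (adjusted p = 0.00281). Mcm5, a subunit of the replicative helicase, was at 28.1, 26.5 and 27.5 FPKM with BSA and at 13.1, 12.6 and 12.8 with PA + C3G, −1.03 ± 0.04 (SE, adjusted p = 2.56e-07), and had been at −1.99 with PA. Pcna, the sliding clamp of the polymerases, stood at 122, 99.0 and 102 FPKM against 187, 174 and 184. Mcm10 (−1.61), Cdc45 (−1.38), Pole (−1.36) and Tk1 (−1.29), which load or feed the replication fork, were next after Rrm2. The groups did not overlap for Rrm2, Mcm5, Pcna, Mcm10, Cdc45 and Tk1.

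All 23 mitosis genes were more than 2-fold below BSA, with a median of −1.59 (−1.70 with PA). Against PA, 8 were higher and 3 were lower. Mki67, the proliferation marker Ki-67, was at 45.1, 38.6 and 42.7 FPKM with BSA, at 8.61 to 8.85 with PA and at 10.8, 11.9 and 12.01 with PA + C3G, a change of −1.80 ± 0.06 from BSA (SE, adjusted p = 1.1e-07). Top2a, the topoisomerase that untangles chromosomes, was at 24.7, 23.1 and 24.1 FPKM against 94.2, 79.5 and 91.1. Mybl2, a transcription factor of late cell cycle genes, had the lowest change of the list at −2.18 ± 0.12 (SE, adjusted p = 9.08e-07), though PA had taken it to −3.28. Aurkb, the kinase of chromosome segregation, was further from BSA with PA + C3G than with PA. It was at 24.2, 23.0 and 24.3 FPKM with BSA, at 14.4 to 16.9 with PA and at 10.2, 10.4 and 11.8 with PA + C3G, and PA + C3G against PA was −0.48 (adjusted p = 0.00194). Cenpf, a kinetochore protein, showed the same order, −1.41 with PA and −1.72 with PA + C3G, with −0.31 between them (adjusted p = 0.0316).

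Of 19 cell cycle regulators tested, 10 were below BSA and 1 above, and 8 were not called. Members of the E2F family, which activate or repress S-phase genes, were among the lowest, with E2f8 at −1.67, E2f2 at −1.66 and E2f7 at −1.41. Cdkn2c, an inhibitor of the cyclin D kinases, was at 10.03, 6.52 and 9.62 FPKM against 25.6, 27.4 and 29.9 (−1.60, adjusted p = 2.96e-05). Ccnd1, cyclin D1, was the member above BSA, though its level was low, at 2.44, 1.99 and 2.09 FPKM against 0.246, 0.418 and 0.388 (2.69 ± 0.20, SE, adjusted p = 6.18e-06). The E2F sites TTTCCCGC and TTTGGCGC stood in 7 of 28 matched replication promoters (25%) and in none of 18 mitosis promoters, against 346 of all promoters (1.26%). Of the 233 tested genes with such a site 83 were below BSA (35.6%) and 22 above (9.4%).

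**Figure D4:**
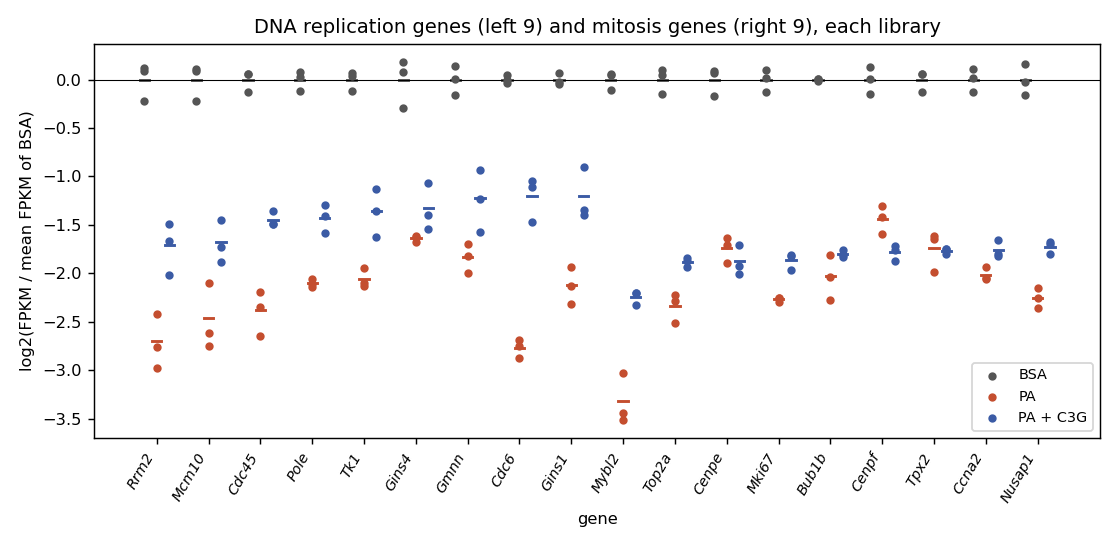
FPKM of the 9 DNA replication genes (left) and 9 mitosis genes (right) with the lowest log2 fold change, in each library, as log2 of the ratio to the BSA mean; points are libraries and bars group means. No PA + C3G point reaches the BSA points, and for Cenpe, Cenpf and Tpx2 the PA + C3G means lie below the PA means.

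Insulin and the cargo of its granules gave a mixed picture, with members left below BSA, members brought past it and members raised further. Of 17 tested, 13 were above BSA, 3 below and 1 was not called. Ins2 was at 13167, 15321 and 12847 FPKM with BSA, at 1748 to 2099.7 with PA and at 6364, 7700.0 and 6959 with PA + C3G. Its change from BSA was −0.91 ± 0.10 (SE, adjusted p = 6.86e-05), and every PA + C3G library lay below every BSA library. Ins1, the second insulin gene of the rat, was at 27615, 24631 and 27703 FPKM with BSA, at 12999 to 14342 with PA and at 36222, 29172 and 30612 with PA + C3G. Here every PA + C3G library lay above every BSA library, by 0.33 ± 0.08 (SE, adjusted p = 0.0102). By limma on log2(FPKM + 1) the Ins1 difference was 0.26 with an adjusted p of 0.0523, and with a pseudocount of 0.1 it was 0.26 with 0.0583, so its place above BSA depended on the method. The 2 genes are close paralogs, and reads that match both may have been split between them in the authors' counting.

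The stretch before the start site is similar in both insulin genes. The 250 bases upstream of Ins1 (chr1:261185869-261186118, plus strand) and Ins2 (chr1:207273806-207274055, minus strand; GRCr8, RefSeq) aligned over 262 columns, of which 205 were identical (78.2%), 33 held a substitution and 24 a gap. They are shown 5′ to 3′ up to the base before the start, because the genes ended on different sides of BSA. Capitals mark bases that differ or have no partner in the other gene.
Ins1: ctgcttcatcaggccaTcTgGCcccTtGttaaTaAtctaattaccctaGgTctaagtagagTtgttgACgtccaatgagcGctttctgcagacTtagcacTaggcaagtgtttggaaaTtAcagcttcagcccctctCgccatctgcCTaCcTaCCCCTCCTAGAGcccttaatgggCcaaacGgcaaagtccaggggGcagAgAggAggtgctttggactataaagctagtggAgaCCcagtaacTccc
Ins2: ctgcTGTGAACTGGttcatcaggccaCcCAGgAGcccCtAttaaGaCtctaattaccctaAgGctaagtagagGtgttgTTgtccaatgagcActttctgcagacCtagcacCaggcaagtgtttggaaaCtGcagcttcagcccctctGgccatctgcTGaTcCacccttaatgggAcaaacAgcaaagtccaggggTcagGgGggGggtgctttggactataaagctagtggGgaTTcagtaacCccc
No statement about regulation follows from these differences, since no measurement here bears on either promoter.

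The granins, acidic proteins that pack the granule core, were above BSA with PA + C3G, and differed in what PA alone had done to them. Chgb, secretogranin 1, was at 2172, 1545 and 1860.1 FPKM with BSA, at 4153 to 4824 with PA and at 8182, 6358 and 6976 with PA + C3G. The change from BSA of 2.01 ± 0.13 (SE, adjusted p = 2.86e-06) was a 4.03-fold rise, and PA + C3G was 0.74 above PA (adjusted p = 0.0035). Chga, chromogranin A, had fallen with PA to 3534 to 3921 FPKM and was at 5072, 5345 and 5278 with PA + C3G against 4270.3, 4291 and 4078 with BSA, 0.37 ± 0.05 above BSA (SE, adjusted p = 0.000159). Vgf (1.11), Scg2 (1.02) and Scg3 (0.88), further members of the granin family, were above BSA, and their changes with PA alone were 0.85, 0.73 and 0.70. Against PA, Scg3 passed the threshold (0.18, adjusted p = 0.0198), and Vgf and Scg2 did not.

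The enzymes that cut prohormones parted. Pcsk1, the convertase that makes the first cuts in proinsulin, was at 13.3, 11.2 and 12.99 FPKM with PA + C3G against 18.5, 21.8 and 20.3 with BSA, −0.64 ± 0.08 (SE, adjusted p = 0.000196), after −1.62 with PA. Pcsk2, the second convertase, had not changed past the threshold with PA (0.02, adjusted p = 0.852) and was at 452, 364 and 396 FPKM against 329, 295 and 305, 0.45 above BSA (adjusted p = 0.0034). Cpe, which trims the cut ends, was 0.69 above BSA. Iapp, amylin, was at 3696, 3344 and 3643 FPKM against 3366, 3479 and 3171, overlapped BSA and missed the threshold (0.15, adjusted p = 0.0519). Iapp passed it by DESeq2 (adjusted p = 0.0236), without PA replicate 2 (0.0374) and without PA + C3G replicate 2 (0.19, adjusted p = 0.0306). Slc30a8, the granule zinc transporter, was at 720.1, 804 and 774 FPKM against 883, 886 and 901, and its small difference (−0.15, adjusted p = 0.0442) was lost without any one of BSA replicates 1, 2 and 3 (adjusted p = 0.0654, 0.0628 and 0.0973), PA replicate 3 (0.0621) or PA + C3G replicates 1 and 3 (0.119 and 0.079).

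**Figure D5:**
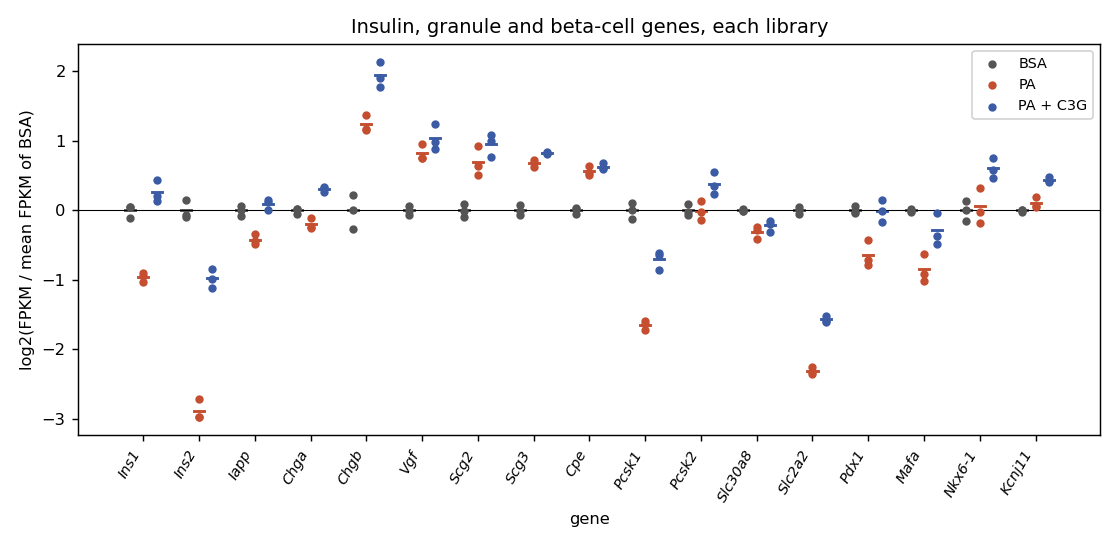
FPKM of insulin, granule and beta-cell genes in each library, as log2 of the ratio to the BSA mean; points are libraries and bars group means. The PA + C3G points lie above the BSA points for Ins1, Chga, Chgb, Vgf, Scg2, Scg3, Cpe, Pcsk2, Nkx6-1 and Kcnj11, below them for Ins2, Pcsk1, Slc30a8, Slc2a2 and Mafa, and overlap them for Iapp and Pdx1.

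Beta-cell transcription factors were called against BSA about as often as all genes. Of 18 tested, 4 were higher, 2 were lower and 12 were not called, so that 33.3% were called against 36.9% of all genes, and the sign of the median of the list (0.02) turned with the scaling. Nkx6-1, which upholds beta-cell identity, was above BSA at 69.0, 84.4 and 74.6 FPKM against 45.1, 54.9 and 50.1 (0.66 ± 0.13, SE, adjusted p = 0.00302), and PA alone had not changed it past the threshold (0.08, adjusted p = 0.626). Foxa1, a pioneer factor of endoderm, rose by 0.69 from a low level, as it had with PA (0.69). Pdx1, the main activator of the insulin genes, was at 226, 282 and 251 FPKM against 249.1, 264 and 248 (0.06, adjusted p = 0.689), after −0.61 with PA. For Mafa, a glucose-responsive activator of insulin, the 3 PA + C3G libraries were at 271, 369.8 and 296 FPKM against 388, 380.1 and 375, all below BSA, though the difference did not pass the threshold (−0.22, adjusted p = 0.178). Without PA + C3G replicate 2, the highest of the 3, Mafa was at −0.37 and passed it (adjusted p = 0.0241). Pdx1 and Mafa were picked for their role and not by size.

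Glucose sensing genes were called on both sides of BSA. Of 14 tested, 5 were below BSA, 2 above and 7 not called, so that 50% were called against 36.9% of all genes. Slc2a2, the glucose transporter GLUT2, was at 527, 490.1 and 512 FPKM with BSA, at 99.99 to 107 with PA and at 168, 178 and 169 with PA + C3G, −1.51 ± 0.05 from BSA (SE, adjusted p = 7.41e-08). Txnip, an arrestin-like protein induced by glucose, was at 106, 65.6 and 99.2 FPKM with BSA and at 12.5, 10.4 and 11.7 with PA + C3G. This change of −2.91 ± 0.16 (SE, adjusted p = 1.26e-06) did not differ from that with PA past the threshold (0.39 between the groups, adjusted p = 0.111). Gpd2, the mitochondrial glycerophosphate dehydrogenase, remained low at −0.61. The members above BSA were those of the KATP channel. Kcnj11 and Abcc8, the pore and the sulfonylurea receptor of the KATP channel, were 0.50 and 0.48 above BSA, Kcnj11 at 219.5, 227 and 216 FPKM against 164, 164 and 161. PA alone had raised Kcnj11 by 0.13, and PA + C3G exceeded PA by 0.37 (adjusted p = 0.000611). Among 16 exocytosis genes 7 were higher and 3 lower, a balance of 4 to 4 with the same FPKM sum per library. Unc13a, which primes granules, was 0.43 above BSA, and Sytl4, granuphilin, which docks them, 0.61 below on the log2 scale, at 185, 221 and 211 FPKM against 317, 325 and 341.

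Genes of fatty acid oxidation were mostly above BSA. Of 19 tested, 12 were higher than BSA, 3 lower and 4 not called, and against PA 5 were higher and 2 lower. Among all tested genes 19.0% were higher and 17.9% lower than BSA, and 11.1% and 10.2% against PA. Cpt1a, the carnitine transferase that admits long-chain fatty acids to mitochondria, was at 13.5, 13.2 and 12.6 FPKM with BSA, at 32.2 to 36.1 with PA and at 33.8, 29.7 and 30.3 with PA + C3G, 1.31 ± 0.06 above BSA (SE, adjusted p = 4.85e-07). Acaa2, the last enzyme of the beta-oxidation spiral, was at 72.2, 70.7 and 72.6 FPKM against 27.4, 27.2 and 27.6, a rise of 1.45. For Slc25a20, the carnitine carrier, the rise was 1.16. None of these 3 differed between PA + C3G and PA past the threshold. Acot2, a mitochondrial thioesterase, was 1.29 above BSA and 0.86 below PA (log2, adjusted p = 0.00304). Hadh, the short-chain dehydrogenase that also restrains insulin release, was the lowest member at 89.9, 94.6 and 90.9 FPKM against 149, 135 and 142 (−0.57, adjusted p = 6.96e-05).

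Lipid synthesis genes were higher than BSA more often than lower, and some lay between BSA and PA. Srebf1, which encodes SREBP-1, was at 43.7, 45.2 and 43.6 FPKM with BSA, at 118 to 133 with PA and at 88.1, 93.2 and 92.5 with PA + C3G, 1.11 ± 0.05 above BSA (SE, adjusted p = 2.45e-07) and 0.41 below PA (log2, adjusted p = 0.000401). Scd2, a desaturase, and Insig1, which holds SREBP in the ER, showed the same order, at 0.87 and 1.07 above BSA. Of 15 fatty acid synthesis genes 7 were higher and 2 lower than BSA, and of 22 cholesterol synthesis genes 10 were higher, 1 lower and 11 not called. Against PA, 5 of the 15 and 8 of the 22 were lower, and none of either list was higher. Acly, which makes cytosolic acetyl-CoA, was below BSA (−0.34), much as with PA (−0.43). Among 14 lipid droplet genes 7 were higher and 7 not called. G0s2, an inhibitor of triglyceride lipase, was further up than with PA, at 167, 156 and 157 FPKM against 71.9, 64.5 and 74.4 with BSA, and PA + C3G exceeded PA by 0.49 (adjusted p = 0.0018).

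Glycolysis, the cytoskeleton, cytosolic chaperones and the proteasome held mostly genes below BSA. Of 14 glycolysis genes 8 were lower and 2 higher (8 lower and none higher with the same FPKM sum per library). Pkm, pyruvate kinase, was at 203, 177 and 194 FPKM against 455, 394 and 447 (−1.11 ± 0.07, SE, adjusted p = 1.94e-06), and Tpi1 and Eno1, other enzymes of the pathway, were at −1.72 and −0.77. Of 17 actin and tubulin genes 11 were lower and none was higher. Tubb5, a beta-tubulin, was at 199, 181 and 202 FPKM against 489, 445 and 489.7 (−1.23), and Actb, a common reference gene, was 450.0, 461 and 476 against 627, 659.6 and 636 (−0.41, adjusted p = 1.32e-05). Of 10 cytosolic heat shock genes 7 were lower, led by Bag3 (−0.71), and of 36 proteasome subunits 21 were lower and 15 not called, led by Psmb2 (−0.42). None of either list was higher.

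The circadian clock and some genes of other lists remained away from BSA, with calls in both directions. In the circadian clock 9 of 18 genes were above BSA and 4 below. Arntl, the activator BMAL1, was at 3.77, 3.07 and 4.05 FPKM against 9.20, 7.86 and 8.48 (−1.17, adjusted p = 5.46e-05), and Nr1d1, its repressor REV-ERB alpha, was at 25.8, 25.7 and 27.2 against 9.55, 10.3 and 10.6 (1.43, adjusted p = 2.15e-07). Dbp, an output gene of the clock, rose by 1.18. For NRF2 targets, which answer oxidative stress, 7 of 17 were higher and 5 lower, with Osgin1 (1.58) and Ephx1 (1.39) the highest and Prdx1, a peroxiredoxin, at −0.32. Tfrc, the transferrin receptor, was at 66.8, 65.3 and 68.03 FPKM with PA + C3G, 0.40 below BSA on the log2 scale after 1.34 below with PA. B2m, the light chain of class I antigens, was 0.82 above BSA. Of 11 chemokine and interferon genes 2 were higher and 3 lower. Cxcl10, a chemokine, was at −1.08, a call lost among others without BSA replicate 2 (adjusted p = 0.123). Ppargc1a, a coactivator of mitochondrial genes, was at 2.37, 2.08 and 2.22 FPKM against 1.42, 0.791 and 1.01 (1.11, adjusted p = 0.00331).

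Some lists were called less often than the 36.9% of all genes. Of 74 mitochondrial ribosomal proteins 64 were not called, and of 70 nuclear-encoded subunits of oxidative phosphorylation 58. Their few calls were 3 higher and 7 lower in the first list (2 and 15 with the same FPKM sum per library), and 6 higher and 6 lower in the second (4 and 18). Among 13 mitochondrially encoded mRNAs 11 were not called, 1 was higher and 1 lower (none and 2 with the same FPKM sum per library), and among 9 amino acid transporters 8. Aminoacyl-tRNA synthetases were called about as often as all genes (38.9%). They were divided, with 4 of 18 higher and 3 lower, a balance that turned to 2 and 5 with the same FPKM sum per library. Cytosolic ribosomal proteins had been moved by PA and lay nearer to BSA with PA + C3G. With PA 58 of 71 were higher than BSA, and with PA + C3G 20 were higher, 1 lower and 50 not called, with a median of 0.10 after 0.33. With the same FPKM sum per library the PA + C3G calls were 7 higher and 6 lower. Many of these genes have processed copies in the genome, so their counts are uncertain. The other lists held calls in both directions or few calls. Their called shares ran from 25% (peroxide removal) to 60% (mitochondrial proteases and chaperones), so some were called more often than all genes. Of these, 4 of 15 adhesion genes were higher and 4 lower, 3 of 12 peroxide removal genes were higher (2 higher and 2 lower with the same FPKM sum), 1 of 14 immediate early genes was higher and 3 lower, 2 of 11 chemokine and interferon genes were higher and 3 lower, 3 of 10 serine and one-carbon genes were higher and 2 lower (1 and 2 with the same FPKM sum), 2 of 8 iron genes were higher and 2 lower (1 and 3), and 5 of 15 mitochondrial proteases and chaperones were higher and 4 lower (3 and 5).

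The KEGG annotation in the deposited table gave 294 pathways with 10 or more tested genes, which overlap one another. Of all tested genes 19.0% were higher than BSA and 17.9% lower. Lowest by median were DNA replication (−0.60, 31 of 36 genes lower, none higher), mismatch repair (−0.48, 19 of 23 lower), homologous recombination (−0.47, 25 of 39 lower, 2 higher), the Fanconi anemia pathway (−0.44, 29 of 47 lower) and base excision repair (−0.44, 16 of 33 lower, 2 higher). Cell cycle followed at −0.35 with 72 of 112 lower and 6 higher. At the other end stood glycan degradation (0.69, 13 of 16 higher) and glycosaminoglycan degradation (0.60, 7 of 12 higher), both made of lysosomal enzymes. Lysosome itself held 59 of 94 genes above BSA and 2 below (0.33), and protein processing in the ER 82 of 150 above and 17 below (0.28).

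The 44 genes that passed over BSA did so by small amounts. Their median distance from BSA was 0.22 on the log2 scale, 8 of them were more than 1.25-fold away and none was 2-fold away, and in 37 the PA + C3G libraries did not overlap those of BSA, against 50.3% of all tested genes. The 44 had been selected by the test between these same libraries, so little overlap follows from the choice. This count was the least stable of those given here. It fell to 17 without BSA replicate 3, to 27 without BSA replicate 1 and to 28 without PA + C3G replicate 3, and only 6 genes stayed in the class under every alternative tried. Those 6, named after their values were seen, were Gpd1, Ptprn2, Stat3, B3gnt3, Snrpa1 and a locus that the table lists under the symbol Gnas, one of the copies sharing that symbol.

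Pdgfrl, a secreted protein resembling a growth factor receptor, had the largest rise above BSA, at 11.1, 7.604 and 8.598 FPKM against 6.25, 4.32 and 5.35 (0.84 ± 0.21, SE, adjusted p = 0.0102), with PA at 2.72 to 4.002. Gpd1, which makes glycerol 3-phosphate in the cytosol, was at 61.2, 54.9 and 58.5 FPKM with PA + C3G, 46.1, 42.3 and 43.2 with BSA and 29.7 to 36.7 with PA. It was 0.47 ± 0.08 above BSA (SE, adjusted p = 0.000953) where PA had placed it 0.40 below (log2), in contrast to Gpd2, its mitochondrial partner, which stayed low. The locus under the symbol Gnas (ENSRNOG00000025889) lay between Pdgfrl and Gpd1 by size, at 1094, 965 and 1001 FPKM against 768, 781 and 749 (0.48 ± 0.05, SE, adjusted p = 9.48e-05), and PA had placed it at 614 to 677. After Gpd1 came Chga (0.37), RT1-N3, a class I antigen, at 0.34, Ins1 (0.33), P4ha2, a collagen prolyl hydroxylase, at 0.32, B3gnt3, a glycosyltransferase, at 0.31 and Pkdcc, a secreted kinase, at 0.29. The call of RT1-N3 was lost without BSA replicate 1 (0.30, adjusted p = 0.0539) or PA + C3G replicate 3 (0.28, 0.0587), and that of Pkdcc without BSA replicate 1 (0.23, 0.0542) or PA + C3G replicate 2 (0.24, 0.0506), and by limma with a pseudocount of 1 (0.0536) or 0.1 (0.059). Ptprn2, a phosphatase-like protein of the granule membrane, was at 125, 122 and 122 FPKM against 110.2, 109.8 and 108 (0.23, adjusted p = 0.00042). Stat3, a transcription factor of cytokine signalling, was at 78.0, 71.4 and 74.6 FPKM against 69.3, 65.4 and 66.6 (0.21, adjusted p = 0.00337). Among the rest were 2 near-identical pairs, Nupr1 with Nupr1l1 and Pcsk1n with an unnamed locus, whose reads cannot be assigned with certainty, so that the number of separate genes may be smaller. Without BSA replicate 3 the calls of Nupr1 (adjusted p = 0.0528), Nupr1l1 (0.0523) and Pcsk1n (0.0598) were lost, and that of Pcsk1n also without BSA replicate 1 (0.0558) or PA + C3G replicate 2 (0.0513). By limma with a pseudocount of 1 or 0.1 the calls of Nupr1 (0.0533 and 0.0589), Nupr1l1 (0.0539 and 0.0594) and Pcsk1n (0.089 and 0.0935) were lost too.

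Below BSA, Fabp5, a fatty acid binding protein, moved furthest. It was at 72.9, 58.4 and 75.7 FPKM with BSA, rose to 78.9 to 98.9 with PA and was at 50.1, 43.4 and 41.6 with PA + C3G, −0.55 ± 0.11 (SE, adjusted p = 0.00425). Snrpa1, a splicing protein, was at 15.7, 15.4 and 15.4 FPKM against 19.9, 19.6 and 20.2 (−0.30, adjusted p = 0.0052). Hspa8, the constitutive cytosolic chaperone, was at 163, 157 and 161 FPKM against 187, 194 and 218 (−0.25, adjusted p = 0.00851), and Npm1, the nucleolar nucleophosmin, at 361, 376 and 375 against 431, 436 and 450.3 (−0.18, adjusted p = 0.00205). Cep70, a centrosome protein, was at −0.26 and Sbf2, a phosphatase relative of endosomes, at −0.13. Kmt5a, a histone methyltransferase, and Impdh2, of guanine nucleotide synthesis, lay 0.16 and 0.15 below BSA, and both calls were lost without BSA replicate 3 (adjusted p = 0.0566 and 0.0838) or PA + C3G replicate 3 (0.0599 and 0.0928), and that of Impdh2 also without PA + C3G replicate 2 (0.066).

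For the 697 genes called against BSA with PA + C3G and not with PA, the median size was 0.29 with PA + C3G and 0.11 with PA, and in 573 both changes had the same sign. Passing the threshold in one contrast and not in the other does not show that the contrasts differ. By the direct test of PA + C3G against PA 233 of the 697 passed. Inhbe, an activin subunit of stressed cells, did so, at 7.35, 9.38 and 7.83 FPKM against 2.78, 5.94 and 3.75 with BSA (1.04 ± 0.23, SE, adjusted p = 0.00652) and 0.89 above PA (adjusted p = 0.0239). So did Pak2, a kinase of the cytoskeleton, on the low side, at 6.64, 7.22 and 6.03 FPKM against 17.3, 19.0 and 8.02 (−1.09, adjusted p = 0.00861), with 1 BSA library near the PA + C3G level. Taf9, a subunit of TFIID, was at 18.1, 17.7 and 19.2 FPKM against 5.63, 6.33 and 7.26, but 1 PA library stood at 19.4 and the other PA libraries at 6.28 and 6.04, so its place between the groups rests on that library. Rhebl1, a small GTPase, was 0.68 below BSA on the log2 scale (adjusted p = 0.00195). Ms4a8 (1.48), Nrtn (0.84) and Ramp2 (0.78) above BSA and Cmc4 (−1.15) and Nupr2 (−0.69) below it were called less firmly. Ms4a8, Nrtn, Cmc4 and Nupr2 lost their calls without BSA replicate 3 (adjusted p = 0.0685, 0.0668, 0.0629 and 0.1), and Ramp2 without BSA replicate 1 (0.0635). Ms4a8, Ramp2 and Nupr2 also lost them without PA + C3G replicate 1 (0.0789, 0.0662 and 0.0766), Nrtn without BSA replicate 1 (0.0839) or PA + C3G replicate 2 (0.0867), and Cmc4 without BSA replicate 2 (0.0514), PA + C3G replicate 2 (0.0564) or replicate 3 (0.0566). Nupr2 was lost as well without BSA replicate 2 (0.104), PA + C3G replicate 2 (0.0677) or replicate 3 (0.0782), and Ms4a8 without BSA replicate 2 (0.0676).

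Among genes at a mean of 5 FPKM or more with a symbol and no overlap between the groups, the 10 largest rises and the 10 largest falls were all on the side to which PA had moved the gene. Serpina6, which encodes corticosteroid-binding globulin, was at 11.2, 32.5 and 21.5 FPKM against 1.53, 3.11 and 2.02 (3.35 ± 0.47, SE, adjusted p = 0.000387), with PA at 26.0 to 63.0. Cntn3, a neural adhesion protein, was at 18.7, 28.6 and 24.1 FPKM against 2.87, 3.43 and 3.34 (2.95 ± 0.15, SE, adjusted p = 7.59e-07). Slc24a4, a sodium-calcium exchanger, rose by 2.51, Alpl, alkaline phosphatase, by 2.28, and Lrrc39, a leucine-rich repeat protein, by 2.10. Bhlha15, the transcription factor MIST1 of secretory cells, was at 17.3, 16.7 and 18.2 FPKM against 3.46, 5.46 and 4.54 (2.02 ± 0.13, SE, adjusted p = 2.93e-06). Cck, the hormone cholecystokinin, varied most between libraries, at 21.2, 5.83 and 10.9 FPKM against 3.63, 2.00 and 2.52 (2.27 ± 0.47, SE, adjusted p = 0.00431). Mug1, a protease inhibitor of the macroglobulin family, rose by 2.00. A locus with a provisional name (NEWGENE_1562258) was listed at 0 in 2 of the BSA libraries and at 8.26 to 9.04 FPKM with PA + C3G, and no fold is given for it.

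Beside Txnip and Mybl2, the largest falls were mostly in genes of dividing cells. Melk (−2.10) and Pbk (−1.995), both mitotic kinases, were at 3.41 to 3.79 and 5.26 to 6.31 FPKM with PA + C3G against 15.0 to 16.5 and 23.0 to 24.99 with BSA. Pclaf, a partner of the PCNA clamp, Espl1, the separase that frees sister chromatids, and Oip5 and Spc24, of the centromere and kinetochore, lay between −1.91 and −1.84. Racgap1, a regulator of cytokinesis, was at 6.34, 8.08 and 12.2 FPKM against 20.6, 40.2 and 47.2, and Hmgb2l1, a copy of a chromatin protein gene, at 5.99, 7.11 and 8.89 against 45.2, 15.4 and 22.9, both with wide BSA libraries. Hmgb2l1 may share reads with its parent gene.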

How the data were processed

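Per the labels, polyadenylated RNA of INS-1E cells was sequenced as stranded paired-end libraries. There were 3 for each of the groups called BSA, PA and PA + C3G here. The submitters' processing notes name cutadapt 1.9, HISAT2 2.0.4, StringTie 1.3.4d, DESeq2 and edgeR, and the genome build is not given in the sources used here. The authors deposited estimated counts and FPKM per gene and library in 1 table. Low counts pile up at 4 (2.44 times the mean of the neighbouring values 3 and 5), so dividing by 4 was tried as an alternative. The table also holds annotation and the authors' own fold changes and p-values, which were not used.

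Tests covered genes whose FPKM averaged 1 or more across all 9 libraries. The estimated counts were normalised by TMM and fitted over all 9 libraries by the quasi-likelihood test of edgeR 4.0.16 in R 4.3.3. Benjamini-Hochberg adjustment was used, with a threshold of 0.05. Counts were rounded only for DESeq2 and after division by 4. The script was first tested on simulated data. Errors are standard errors of log2 fold changes. Values per library are FPKM, which were not refitted. A range after "with PA" covers its 3 libraries.

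Alternatives were DESeq2 1.42.0, its size factors in edgeR, scaling to the same FPKM sum, no filter, a mean of at least 5 FPKM, the 2 groups alone, a replicate block, counts divided by 4, limma 3.58.1 on log2(FPKM + 1) and log2(FPKM + 0.1), and leaving out each library. Pathways are those of the deposited KEGG column. Promoters are those of RefSeq, and Ins1 and Ins2 were aligned by script.

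Members and gene lists were chosen with earlier results of these data known. Named genes were, with a mean of at least 5 FPKM, a symbol and no overlap between the groups, the 10 largest changes each way, the 8 largest each way across BSA, and the 5 largest each way among those not called with PA. To these came up to 5 largest called members of each list and Eif2ak3, Ddit3, Hspa5, Ins1, Ins2 and Slc2a2. Any other gene named was chosen after its values were seen, among them Acly, Actb, Atf4, Aurkb, Birc5, Cenpf, Cpe, Dnajc3, Hsp90b1, Iapp, Mcm5, Pcna, Pcsk1, Pcsk2, Prdx1 and Slc30a8.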

Additional observations from a re-analysis of the deposited data

How the results depend on the processing

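Of the values of named genes recomputed under the alternatives, 3809 kept their direction and side of the threshold, 203 fell below it and 0 reversed. These genes were chosen for their calls in the main fit or for their mention in the paper, so gains of a call could hardly occur among them. Iapp and Mafa, not called in the main fit, passed the threshold under some alternatives. Of the list medians 701 moved by no more than a small fixed limit on the log2 scale and 2 by more. The limit was not derived from a measured spread. Some medians near 0 turned sign within it. With the same FPKM sum per library, aminoacyl-tRNA synthetases went from 0.0008 to −0.0599 and iron genes from 0.0518 to −0.0083. Lipid droplet genes stood at 0.42 when tested genes had a mean of 5 FPKM or more. NRF2 targets stood at 0.25 without PA + C3G replicate 3. The 600 genes over 2-fold numbered 1040 with no filter (439 higher, 601 lower), 315 at a mean of 5 FPKM or more (127 higher, 188 lower), which changes how many genes are tested, and 398 by limma on log2(FPKM + 1) (114 higher), whose pseudocount shrinks the change of low genes. The number of genes across BSA was 79 with the replicate number as a block, 58 by DESeq2 and 31 by limma on log2(FPKM + 1), and the cause was not tested. Leaving out each library in turn gave 3864 to 4684 called genes (1910 to 2402 higher, 1954 to 2344 lower), 598 to 634 genes over 2-fold (235 to 252 higher, 355 to 382 lower), 3329 to 3848 on the side of PA, 17 to 42 across BSA and 478 to 829 called with PA + C3G and not with PA. With the block 5058 genes were called, 2620 higher and 2438 lower, against 4783 without it. With 3 libraries per group it cannot be told whether equal replicate numbers mark paired samples. Deviations of same-numbered BSA and PA + C3G libraries correlated at 0.034, 0.046 and −0.069. BSA replicate 2 correlated best with PA + C3G replicate 3 (0.073). DESeq2 called 5207 genes. Depth limits the genes under 1 FPKM, which were not tested, and 3 libraries per group limit small changes.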
